A study of Homo sapiens with 14 samples.

Results

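Human embryonic stem cells taken through neural crest induction with TGF-beta 1 were compared at a high and a low dose of CHIR99021, a small molecule that inhibits GSK3 and thereby turns on canonical Wnt signalling. The libraries were chosen by their labels: those marked high Wnt with TGF-beta 1 and those marked low Wnt with TGF-beta 1, 2 of each, which is 4 of the 14 libraries in the series. CHIR99021 was given at 10 µM (high dose) or 3 µM (low dose) from hour 0 to hour 72, and TGF-beta 1 at 5 ng/µL, the unit as the labels state it, from hour 0 to hour 120. The same pair of CHIR99021 doses was also given with no additive and with 10 µM SB431542 from hour 0 to hour 120, 2 libraries in each group, and 2 libraries came from stem cells that had not been induced. SB431542 inhibits the kinases of the receptors that TGF-beta, nodal and activin use.

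All cells were WA01 (H1), an established human embryonic stem cell line, and the induced cultures grew on Matrigel in DMEM/F12 medium containing bovine serum albumin and B27. RNA was taken after day 5 from 500000 cells, selected for poly(A) and made into strand-marked libraries. A single cell line was used, and nothing in the labels tells if paired libraries were grown as separate cultures, so every p-value rests on a spread between libraries that may be technical.

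In canonical Wnt signalling, a complex with AXIN and GSK3 marks beta-catenin for destruction; when GSK3 is inhibited, beta-catenin accumulates, enters the nucleus and activates genes together with TCF and LEF proteins. In the early embryo a stronger and longer Wnt signal turns cells toward trunk and tail fates, with T-box, CDX and HOX genes, whereas a weaker signal leaves head fates in place. TGF-beta 1 binds a receptor pair that phosphorylates SMAD2 and SMAD3, the same effectors that nodal and activin use to keep human pluripotent cells undifferentiated and to start mesoderm and endoderm. Neural crest arises at the edge of the neural plate, where Wnt, BMP, FGF and SMAD signals meet.

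The 4 libraries held between 10879287 and 16167956 counts in genes, within the range of all 14 (10879287 to 19106827). Across genes, log2 CPM (counts scaled to the effective library size) of the high-dose pair correlated with r = 0.99 and of the low-dose pair with r = 0.988, within the 0.988 to 0.992 seen in the 7 groups. The 1st principal component, which carried 51.8% of the variance over all libraries, placed the high-dose libraries at -65.1 and -62.9 and the low-dose libraries at 46 and 58.3. The uninduced stem cells lay at 154 and 163 on the same axis. A count of 3 corresponded to 0.176 to 0.269 CPM in the 4 libraries, and lower levels were read as not detectable at this depth. In bulk RNA, fewer cells of a type and less RNA per cell cannot be told apart, for every gene below.

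With TGF-beta 1 present, the CHIR99021 dose moved 7469 of 16149 tested genes at an adjusted p under 0.05 (46.3%; edgeR quasi-likelihood test with Benjamini-Hochberg adjustment over all tested genes, used for every adjusted p below). Of these, 3682 were higher (22.8%) and 3787 lower (23.5%) at the high dose, and 3293 of the 7469 had a log2 fold change of at least 1 in size. Each log2 fold change below is high dose minus low dose. The value after ± is an approximate standard error, the size of the change divided by the square root of the test's F statistic. It was derived from the test and not from the coefficient, and it may be too small for genes with few counts at 1 dose. The median over all tested genes was -0.00092, so that a list median near 0 is close to the background.

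Without additive, the same dose step moved 6223 genes (38.5%; 19.4% higher and 19.1% lower). With SB431542 it moved 4854 genes (30.1%; 15.3% higher and 14.8% lower). The contrasts share no libraries. Of the genes higher at the high dose with TGF-beta 1, 2171 were also higher without additive, 59% of the former and 69.2% of the latter, and 2083 were lower in both, 55% and 67.5%. Opposite calls were made for 90 genes that rose with TGF-beta 1 and fell without, and for 101 that fell with TGF-beta 1 and rose without. Across the 16149 genes the 2 sets of log2 fold changes correlated with r = 0.726 (Spearman 0.652), a description over genes that are not independent replicates.

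Among genes that reached a mean of 10 CPM at 1 of the doses, the 8 largest increases by fitted log2 fold change were those of HOXA5, HOXA9, HOXC5, RIPPLY1, MEOX1, HOXD9, HOXA10 and HOXC8, of which 6 are HOX genes. The 8 largest decreases were those of IDO1, SOX17, LHX5, PRDM14, SEZ6, POU5F1, TDGF1 and OTX2, with genes of the pluripotent state, the forebrain and the endoderm among them.

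The difference between the dose effects, tested as an interaction (the change with TGF-beta 1 minus the change without), passed for 1905 genes (11.8%), with 926 higher (5.73%) and 979 lower (6.06%). Leaving out any 1 library gave 1256 to 1727 such genes, with the lowest count without low Wnt + TGF-beta 1 replicate 2.

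**Figure D1:**
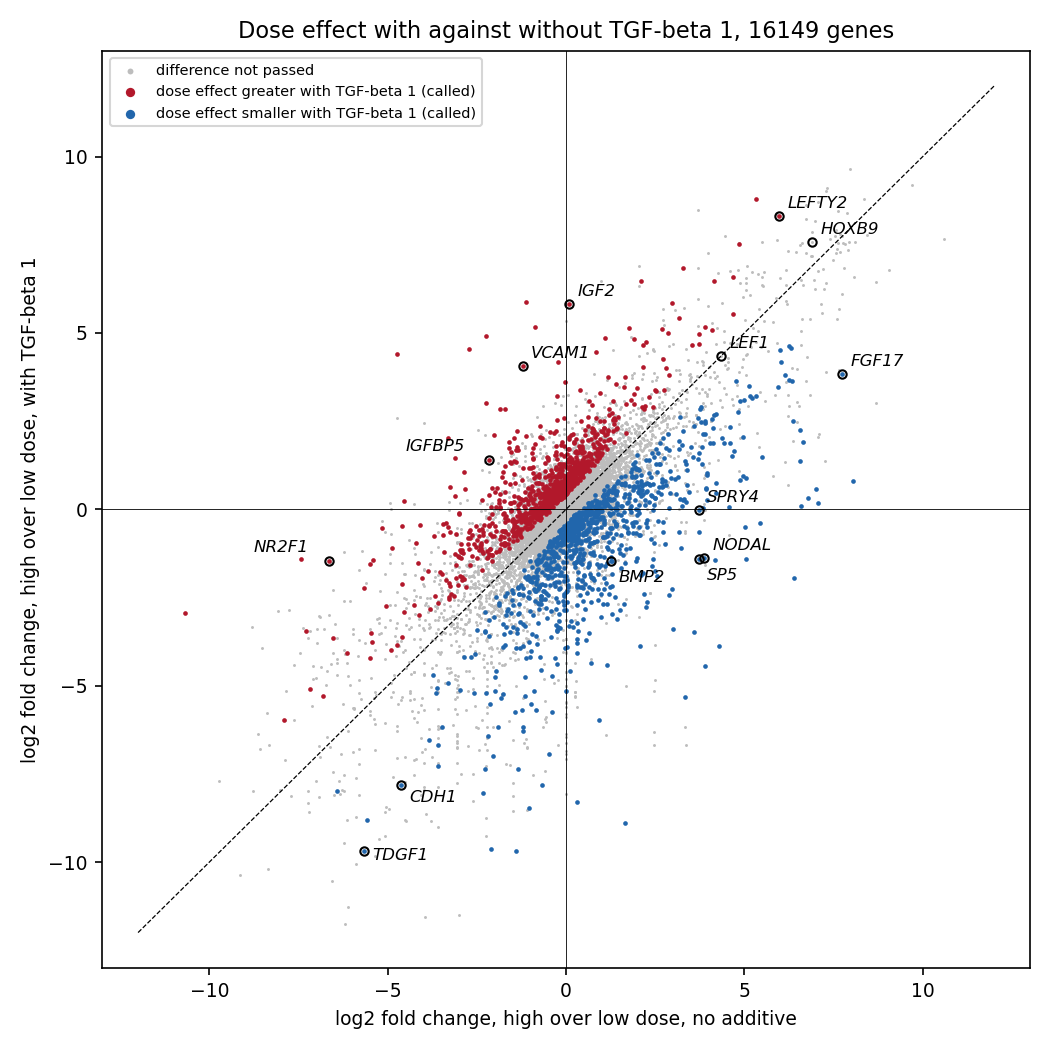
Log2 fold change of each of 16149 genes between the CHIR99021 doses without additive (x axis) and with TGF-beta 1 (y axis); red and blue points passed the test of the difference upward (926) and downward (979), grey points did not, and the dashed line marks equal change. The points run broadly along the line (r = 0.726), and coloured points lie to either side of it.

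Canonical Wnt target genes split under TGF-beta 1: 11 of 19 tested members rose with the dose, 4 fell and 4 did not pass, with a median log2 fold change of 1.23. Without additive the counts were 12 and 3 with a median of 1.25. LEF1, a DNA-binding partner of beta-catenin, stood at 282 and 270.1 CPM at the high dose and 13.7 and 13.5 CPM at the low dose. The groups did not overlap, and the log2 fold change of 4.34 ± 0.13 (adjusted p = 1.45e-13) was matched by 4.34 ± 0.13 without additive. NKD1, a feedback inhibitor of Wnt, rose from 24.7 and 25.8 to 69 and 72 CPM (1.48 ± 0.14, adjusted p = 2.25e-07), and TNFRSF19, a TNF receptor family member, from 30.5 and 34.8 to 126 and 115 CPM (1.88 ± 0.11).

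Other members of the target list moved little or went down. AXIN2, a feedback scaffold commonly used as a Wnt readout, had 59.8 and 53.6 CPM at the high dose and 57.3 and 76.5 CPM at the low dose and did not pass the test (-0.24 ± 0.14, adjusted p = 0.168), although without low-dose replicate 1 it fell by 0.44 and passed. TCF7, another LEF/TCF family factor, had 8.42 and 8.9 CPM against 10.2 and 11.8 CPM (adjusted p = 0.109). CCND1, cyclin D1, fell from 491 and 529 to 356 and 369 CPM (-0.49 ± 0.086, adjusted p = 1.75e-04). For AXIN2 and TCF7 the libraries of the 2 doses lay close together or overlapped, 5 days after induction began and after CHIR99021 had ended at hour 72.

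SP5 and DKK1, a transcription factor and a secreted Wnt inhibitor that are both direct Wnt targets, had dose effects that differed between the settings. The 250 bases before their RefSeq starts (build GRCh38.p14) are shown because both hold letters of the core LEF/TCF motif; capitals mark CTTTGAA and CTTTGAT on either strand (TTCAAAG is CTTTGAA read on the other strand).
SP5, chr2:170715087-170715336 (+): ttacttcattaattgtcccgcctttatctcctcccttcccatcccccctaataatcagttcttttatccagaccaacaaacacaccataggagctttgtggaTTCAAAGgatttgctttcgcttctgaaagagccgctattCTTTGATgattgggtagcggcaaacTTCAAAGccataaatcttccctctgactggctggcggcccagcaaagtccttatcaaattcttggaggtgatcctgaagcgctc
DKK1, chr10:52314031-52314280 (+): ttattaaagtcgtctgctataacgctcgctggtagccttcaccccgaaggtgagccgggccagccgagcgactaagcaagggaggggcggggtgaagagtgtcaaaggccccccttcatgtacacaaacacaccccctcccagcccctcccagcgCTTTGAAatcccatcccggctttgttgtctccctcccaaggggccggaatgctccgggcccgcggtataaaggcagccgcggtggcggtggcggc
SP5 has 3 such matches, at 148, 109 and 84 bases before the start, and DKK1 has 1, at 95 bases. Of all 27305 promoters in the same table, 1646 (6.03%) hold a match in this window. Of the 20 listed Wnt targets, 11 had a promoter in the table and 3 of these (27.3%; SP5, SP8 and DKK1) hold a match. A match is a description of letters, not a binding site.

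SP5 (chr2, 170715347 to 170717988, hg38) had 16 and 15.5 CPM at the high dose and 29.5 and 54.4 CPM at the low dose with TGF-beta 1, but 23.2 and 20.6 CPM and 1.34 and 1.97 CPM without additive. High-dose libraries were thus below the low-dose libraries with TGF-beta 1 and above them without. The log2 fold changes were -1.42 ± 0.24 (adjusted p = 1.63e-04) and 3.71 ± 0.32, and their difference was -5.13 ± 0.40 (adjusted p = 3.19e-07). DKK1 (chr10, 52314281 to 52317657) had 79.3 and 70.8 CPM against 16.2 and 17.7 CPM with TGF-beta 1 and 19 and 18.5 CPM against 1.04 and 1.55 CPM without. It rose in both settings (2.14 ± 0.15 and 3.85 ± 0.21), less so with TGF-beta 1 (difference -1.70 ± 0.27, adjusted p = 4.26e-04). For both genes the low-dose level was higher with TGF-beta 1 than without. The high-dose level was higher with TGF-beta 1 for DKK1 and lower for SP5.

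The set of Wnt ligands changed with the dose: of 14 tested, 6 rose, 5 fell and 3 did not pass, with a median of -0.16. Those 11 calls were 7 without high-dose replicate 1 and 6 without low-dose replicate 2. The summed level of the 17 listed ligands was 273 and 290 CPM at the high dose and 74.6 and 81.7 CPM at the low dose. WNT5A, a ligand of non-canonical Wnt signalling, had 140.3 and 138 CPM at the high dose and 6.33 and 4.63 CPM at the low dose (4.68 ± 0.14, adjusted p = 1.89e-13), a step larger by 0.96 ± 0.19 than that without additive (adjusted p = 0.00266). WNT5B, its close relative, rose from 1.64 and 0.995 to 23.4 and 25.1 CPM (4.22 ± 0.24). The canonical ligands of the primitive streak and tailbud also rose: WNT3A went from 16.6 and 19.2 to 49.6 and 63.2 CPM (1.66 ± 0.16) and WNT8A from 3.84 and 2.63 to 24.5 and 24.2 CPM (2.92 ± 0.22). WNT2B, another ligand, fell from 3.63 and 3.34 to 0.806 and 0.798 CPM (-2.11 ± 0.44).

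Receptors and coreceptors moved in both directions, with 7 of 18 higher, 9 lower and 2 not passed (median -0.52). FZD10, a Frizzled receptor of the posterior embryo, rose from 5.98 and 6.73 to 53.1 and 56.7 CPM (3.11 ± 0.16, adjusted p = 9.13e-11). FZD5, a Frizzled receptor of the anterior embryo, went the other way, from 78.7 and 99 CPM at the low dose to 3.05 and 1.53 CPM at the high dose (-5.35 ± 0.26, adjusted p = 5.61e-11). ROR1, a receptor tyrosine kinase that binds WNT5A, fell from 156 and 178 to 19.1 and 19.1 CPM (-3.13 ± 0.13). ROR2, also on this list, went the other way and was called higher at the high dose. The coreceptor LRP5 rose from 44.7 and 50.5 to 150.4 and 124 CPM (1.52 ± 0.13), and FZD2 from 113 and 124 to 263 and 234 CPM (1.07 ± 0.13).

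Among the secreted Wnt modulators 6 of 14 rose, 7 fell and 1 did not pass (median -0.73). SFRP1 and SFRP2, secreted proteins that bind Wnt ligands, fell: SFRP1 had 314 and 319 CPM at the high dose against 841 and 838 CPM (-1.41 ± 0.085, adjusted p = 7.80e-10), and SFRP2 had 48.7 and 52.2 CPM against 202 and 222 CPM (-2.07 ± 0.11). FRZB, of the same family, did the opposite, with 137 and 127 CPM against 52.1 and 52.3 CPM (1.34 ± 0.12, adjusted p = 1.00e-07). Without additive FRZB had 41.9 and 42.9 CPM against 38.8 and 37.7 CPM and did not pass, and the difference between the settings was 1.19 ± 0.17 (adjusted p = 1.67e-04). RSPO3, which amplifies Wnt signals by sparing Frizzled receptors, rose from 2.99 and 4.27 to 23 and 18.7 CPM (2.51 ± 0.29), and NOTUM, an enzyme that inactivates Wnt ligands, from 1.85 and 2.52 to 5.38 and 6.5 CPM (1.44 ± 0.28).

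Genes of the caudal growth zone, where trunk and tail tissue forms, were mostly higher at the high dose: 15 of 18 rose, 1 fell and 2 did not pass, with a median of 3.37 (5.48 without additive, where 16 rose and 1 fell). TBXT, the T-box factor Brachyury (chr6, 166157656 to 166168669), had 41.6 and 45.7 CPM at the high dose and 0.64 and 0.293 CPM at the low dose (6.57 ± 0.26, adjusted p = 4.87e-12). CDX2, a homeobox activator of trunk HOX genes (chr13, 27962068 to 27969368), had 166 and 172 CPM against 2.28 and 0.761 CPM (6.85 ± 0.25, adjusted p = 1.85e-12). For both, every high-dose library lay far above every low-dose library. CDX1, its relative, rose by 7.48 ± 0.26 on the log2 scale, and TBX6, a T-box factor of presomitic mesoderm, from 2.99 and 3.51 to 19.6 and 16.6 CPM (2.47 ± 0.22).

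FGF17, a growth factor of the tailbud, rose less with TGF-beta 1 than without. It had 23.1 and 24.5 CPM at the high dose and 1.21 and 2.05 CPM at the low dose with TGF-beta 1, and 101 and 69.1 CPM and 0.487 and 0.299 CPM without. The step was 3.84 ± 0.30 with and 7.73 ± 0.35 without, a difference of -3.89 ± 0.57 (adjusted p = 1.93e-04). For FGF8, its close relative, 41.2 and 32.6 CPM stood against 1.56 and 1.46 CPM (4.60 ± 0.31), and the difference between the settings did not pass (adjusted p = 0.302). NKX1-2, which marks the caudal epiblast, showed 2.06 and 1.23 CPM at the high dose and 0.569 and 1.52 CPM at the low dose with TGF-beta 1 and did not pass (adjusted p = 0.279; it passed at 1.47 without low-dose replicate 2), whereas without additive it had 5.15 and 4.75 CPM and 0 and 0.0598 CPM. CYP26A1, which degrades retinoic acid, was the member that fell, from 175 and 181 to 15.9 and 25.8 CPM (-3.07 ± 0.21).

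HOX genes, which give cells their position along the body axis, rose almost as a block. Among 15 genes in paralogue groups 1 to 5, 1 did not pass and 14 rose (median 7.56, or 7.54 with genes at 0 set to their bound). All 12 of groups 6 to 9 rose (median 7.59), as did both tested genes of groups 10 to 13. Without additive 14 of the first class rose and 1 fell, and again all 12 of the second rose. HOXB9 (chr17, 48621157 to 48626473) had 1248 and 1246 CPM at the high dose and 12 and 1.64 CPM at the low dose (7.58 ± 0.45, adjusted p = 1.43e-09). HOXC8 had 112 and 111 CPM against 0.498 and 0.176 CPM (8.40 ± 0.26). The 2 low-dose libraries were unlike for HOXB9, and both were far under the high-dose libraries.

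HOXA5 (chr7, 27141052 to 27143668) was counted 1544 times at the high dose and 3 times at the low dose, a ratio of 584 with a 95% interval of 199 to 2830 (exact, counting error only). HOXA10 had 24.3 and 26.3 CPM against 0.142 and 0 CPM, a ratio of 397 (109 to 3280), and HOXA9 a ratio of 647 (116 to 25600). HOXC10 had 9.59 and 11.4 CPM against 0.285 and 0 CPM (6.25 ± 0.56), whereas the other 10 genes of groups 10 to 13 were not tested and reached at most 0.184 CPM in these 4 libraries. The highest axial level with clear counts was therefore group 10. Neighbouring HOX genes have overlapping models, and reads over 2 genes were left uncounted.

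HOXA2, a hindbrain gene, departed from the block: it had 11.4 and 12.3 CPM against 12.4 and 8.78 CPM and did not pass (adjusted p = 0.532). HOXB1, a gene of the early posterior embryo, had 28 and 35.2 CPM at the high dose and 0.142 and 0.176 CPM at the low dose.

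HOX cofactors of the TALE class gave 4 higher, 2 lower and 3 not passed of 9 (median 0.20), and the difference between the settings passed for 5, all upward. MEIS1 rose from 10.7 and 9.37 to 121 and 117 CPM (3.57 ± 0.13, adjusted p = 1.30e-12), beyond its step without additive by 2.17 ± 0.17 (adjusted p = 3.19e-07). MEIS2 (chr15, 36891021 to 37101299) had 154 and 153 CPM at the high dose and 113 and 90.5 CPM at the low dose with TGF-beta 1, and 59.1 and 68.9 CPM and 252 and 240.3 CPM without. It rose with TGF-beta 1 (0.60 ± 0.12, adjusted p = 5.20e-04) and fell without (-1.94 ± 0.12). PBX3 fell from 83.7 and 70.2 to 6.09 and 6.38 CPM (-3.62 ± 0.15), and PKNOX2 rose from 12.7 and 11.2 to 86.2 and 83.1 CPM (2.83 ± 0.14).

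**Figure D2:**
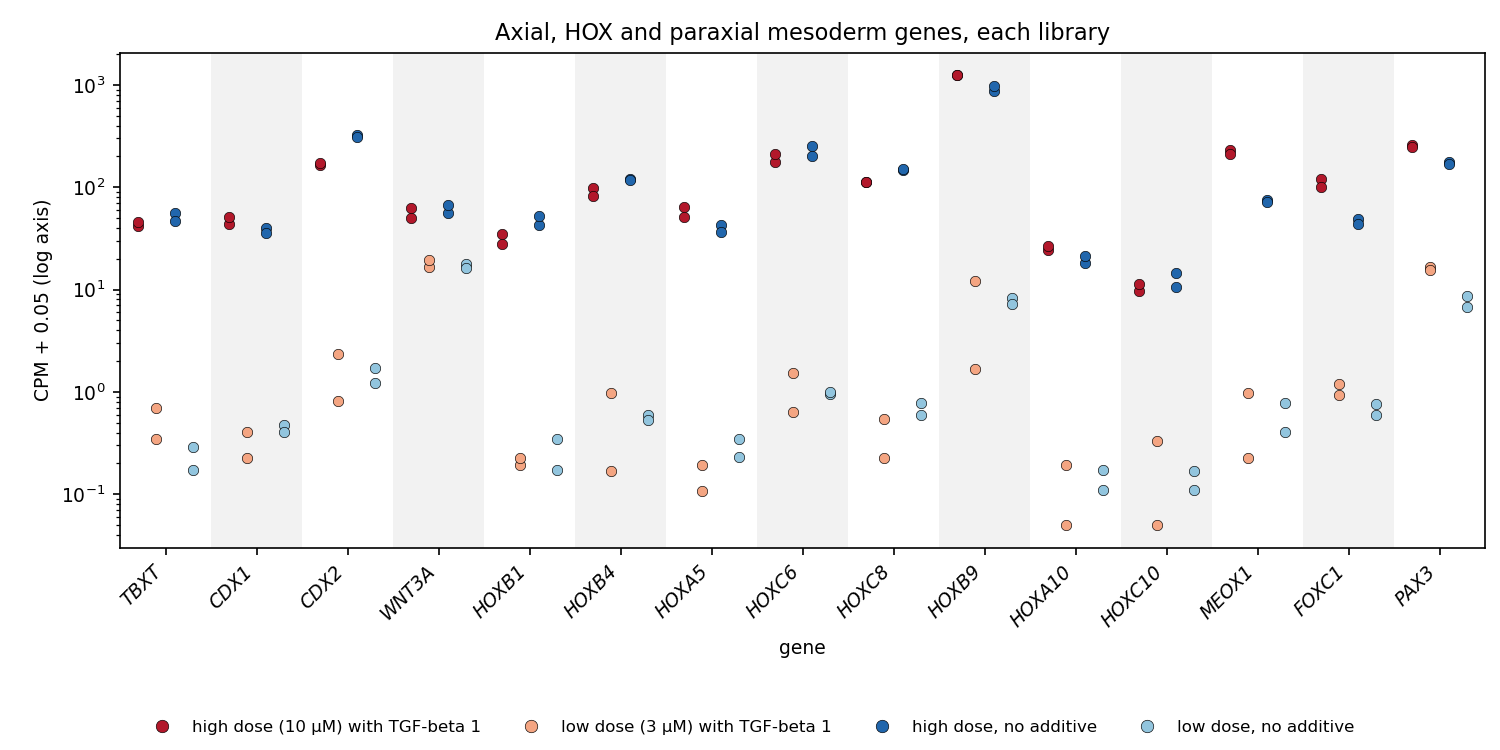
CPM + 0.05 on a log axis for 15 genes of the caudal growth zone, HOX clusters and paraxial mesoderm at the high and low CHIR99021 dose, with TGF-beta 1 and without additive; each point is 1 library. For every gene both high-dose libraries lie above both low-dose libraries, with TGF-beta 1 as without (HOXC8 at 112 and 111 against 0.498 and 0.176 CPM with TGF-beta 1).

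Paraxial mesoderm genes, which build the somites, rose together: 14 of 15 tested rose, none fell and 1 did not pass (median 5.68, or 5.36 at bounds). Their summed level was 916 and 820 CPM at the high dose and 79.6 and 82.9 CPM at the low dose, and 524 and 470 CPM at the high dose without additive. MEOX1, a somite homeobox gene (chr17, 43640390 to 43661894), had 232 and 210.3 CPM against 0.925 and 0.176 CPM (8.72 ± 0.29, adjusted p = 4.02e-13). FOXC1, a forkhead factor of somites and mesenchyme, had 121 and 99.8 CPM against 1.14 and 0.878 CPM (6.78 ± 0.23, adjusted p = 4.40e-13). In each case low-dose libraries were near the limit of detection and high-dose libraries far above it. RIPPLY1, a repressor at somite boundaries, had 53.1 and 39.8 CPM and 0.213 and 0 CPM, a ratio of 469 (160 to 2280). PAX3, shared by somites and the neural plate border, rose from 16.4 and 15.5 to 259 and 248 CPM (3.99 ± 0.13).

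Surface ectoderm and placode genes gave 5 higher, 1 lower and 6 not passed of 12 (median 0.24). The 6 called of 12 were near the share of 46.3% called over all tested genes. EYA1, on that list and a transcriptional coactivator of placodes and somites, had 94.1 and 75.5 CPM at the high dose and 2.77 and 3.51 CPM at the low dose with TGF-beta 1, and 21.2 and 21.1 CPM and 4.87 and 4.13 CPM without. Its step was larger with TGF-beta 1 by 2.51 ± 0.28 (adjusted p = 1.36e-05).

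The retinoic acid pathway moved in both directions: 9 of 18 rose, 6 fell and 3 did not pass (median 0.46). ALDH1A2, the enzyme that makes retinoic acid in somites, rose from 0.142 and 0.176 to 15.7 and 13.3 CPM (6.42 ± 0.36, adjusted p = 3.28e-10). CYP26C1, which degrades it, had 1.08 and 1.23 CPM at the high dose and 272 and 323 CPM at the low dose (-7.99 ± 0.21, adjusted p = 8.60e-14). Transcripts of ALDH1A2 were thus higher, and those of CYP26C1 lower, at the high dose. ALDH1A3 and ALDH1A1, relatives of ALDH1A2 on this list, went the other way and were lower at the high dose. ALDH1A1 had 0 counts at the high dose and 38 at the low dose, at least 11.2-fold higher there. CRABP1, a cytoplasmic retinoic acid carrier, fell from 404 and 374 to 10.8 and 9.2 CPM (-5.29 ± 0.15). RARB, a receptor that retinoic acid itself induces, fell from 30.4 and 24.1 to 14.1 and 13.6 CPM (-0.97 ± 0.17), by less than without additive (difference 1.76 ± 0.23, adjusted p = 7.64e-05).

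Pluripotency genes were higher at the low dose. None of 19 tested members rose with the dose, 15 fell and 4 did not pass, with a median of -2.45 against -0.90 without additive, and the difference between the settings passed for 9, all downward. The summed level was 4508 and 4889 CPM in the low-dose libraries with TGF-beta 1, 2434 and 2694 CPM in those without additive, 1288 and 1193 CPM at the high dose and 10150 and 9838 CPM in uninduced stem cells. Low-dose libraries with TGF-beta 1 thus lay between the other induced groups named here and the stem cells.

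POU5F1 (OCT4), NANOG and PRDM14 are transcription factors of the pluripotent state, and the first 2 have near-identical copies elsewhere in the genome, so that their levels are uncertain. POU5F1 had 0.0896 and 0 CPM at the high dose, 44.9 and 38.9 CPM at the low dose, 1.95 and 4.37 CPM at the low dose without additive and 164 and 231 CPM in stem cells. NANOG had 0 and 0.0614 CPM, 15.4 and 18.9 CPM, 0.731 and 1.67 CPM and 80.6 and 93.5 CPM in the same order. PRDM14 had 0.0896 and 0 CPM against 66.1 and 66.8 CPM, and 93.3 and 102 CPM in stem cells. At the high dose all 3 were at or under the limit of detection, and the ratio of low to high counts was 1140 for POU5F1 (205 to 45200), 475 for NANOG (85 to 18800) and 1820 for PRDM14 (327 to 72100).

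TDGF1, the nodal coreceptor Cripto, which also has near-identical copies, had 0.269 and 0.245 CPM at the high dose and 196 and 242 CPM at the low dose (-9.70 ± 0.32, adjusted p = 3.65e-13). DNMT3B, a DNA methyltransferase abundant in stem cells, had 119.8 and 120.3 CPM and 623 and 685 CPM with TGF-beta 1 and 154 and 153 CPM and 241 and 259.8 CPM without. It fell further with TGF-beta 1 (-2.44 ± 0.094) than without, with a difference of -1.74 ± 0.13 (adjusted p = 2.09e-07). ESRG, a long RNA of human stem cells, fell from 434 and 402 to 1.7 and 1.6 CPM (-7.99 ± 0.17, adjusted p = 8.38e-15). Outside the list, IDO1, a tryptophan-degrading enzyme, was at 0 in both high-dose libraries and at 25.4 and 24.1 CPM at the low dose, at least 226-fold higher there (against 3 counts over the group).

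Epithelial genes behaved alike: none of 18 rose, 17 fell and 1 did not pass (median -3.68), against 4 higher and 10 lower without additive (median -1.28), and the difference passed for 11, all downward. Their summed level was 903 and 1108 CPM at the low dose with TGF-beta 1, 288 and 307 CPM at the low dose without additive, and 233 and 249 CPM at the high dose. CDH1, E-cadherin (chr16, 68737292 to 68835541), had 0.627 and 0.491 CPM at the high dose and 109.8 and 142 CPM at the low dose (-7.83 ± 0.24, adjusted p = 2.28e-13). EPCAM, an epithelial adhesion molecule, had 6.99 and 6.69 CPM against 109 and 144 CPM with TGF-beta 1 and 12.4 and 8.74 CPM against 11.3 and 14.4 CPM without. It fell with TGF-beta 1 (-4.21 ± 0.20, adjusted p = 4.52e-11) and did not pass without (-0.30 ± 0.21), with a difference of -3.92 ± 0.29 (adjusted p = 2.26e-07).

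The splicing regulators of the epithelial state followed. ESRP1 had 1.25 and 1.53 CPM at the high dose and 63.2 and 66.5 CPM at the low dose (-5.51 ± 0.29, difference to no additive -3.36 ± 0.54). ESRP2 fell from 20.5 and 23.4 to 0.986 and 0.307 CPM (-5.20 ± 0.29). Both doses were cleanly separated in these genes. Many epithelial genes are also expressed in the uninduced stem cells (CDH1 at 352 and 328 CPM and EPCAM at 300.3 and 267 CPM).

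Most definitive endoderm genes and most primitive streak genes were higher at the low dose with TGF-beta 1. Of 12 tested endoderm genes 2 rose and 10 fell (median -4.20, or -2.89 at bounds), against 2 higher and 1 lower without additive, where 9 did not pass. Of 11 streak genes 3 rose and 8 fell (median -3.67), against 4 and 1 without additive. The streak genes that rose were TBXT (6.57 ± 0.26), MESP2 and MIXL1. MESP2, a factor of early and presomitic mesoderm, had 1.88 and 1.04 CPM at the high dose and 0.285 and 0.234 CPM at the low dose (2.43 ± 0.60, adjusted p = 0.00322). MIXL1, a homeobox factor of the streak, had 4.39 and 3.01 CPM against 0.925 and 1.46 CPM (1.59 ± 0.45, adjusted p = 0.00851), a call lost at 1.31 without high-dose replicate 1 and at 1.32 without low-dose replicate 1. With TBXT included, the summed level of the 13 listed streak genes overlapped between the doses, at 56.2 and 56.9 CPM against 48.4 and 87.8 CPM. SOX17, an endoderm factor, had no count in either high-dose library and 14.7 and 32.4 CPM at the low dose, at least 223-fold higher. Its low-dose level was 0.183 and 0.538 CPM without additive and 0.074 and 0.0848 CPM in stem cells. The difference between the settings did not pass for SOX17 (adjusted p = 0.164), with both high-dose groups at or near 0, and it passed with DESeq2 and without a filter on low counts.

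FOXA2, a forkhead factor of endoderm, had 0.538 and 0.0614 CPM at the high dose and 12.7 and 25.6 CPM at the low dose (-6.17 ± 0.55, adjusted p = 1.09e-07). GATA6, a zinc-finger factor of endoderm, had 0.717 and 0.859 CPM against 6.33 and 14.1 CPM (-3.67 ± 0.54, adjusted p = 2.98e-05). EOMES, a T-box factor of streak and endoderm, had 0.0896 and 0.0614 CPM against 5.34 and 10.8 CPM, a ratio of 115 (31.4 to 952). In all 4 genes low-dose replicate 2 was higher than replicate 1, and both exceeded the high-dose libraries. GSC, a homeobox gene of the organizer, was at 0 at the high dose and 1.49 and 1.46 CPM at the low dose (at least 13.5-fold higher). CXCR4, a chemokine receptor on the endoderm list, went the other way, from 26.7 and 36.8 to 120.0 and 116 CPM (1.89 ± 0.15). CXCR4 made up most of the summed level of the endoderm list at the high dose, which was 140 and 136 CPM, against 103 and 186 CPM at the low dose.

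Genes of the anterior head fell with the dose: 8 of 11 tested fell, 1 rose and 2 did not pass (median -7.54, or -3.79 at bounds). OTX2, a homeobox gene of forebrain and midbrain (chr14, 56800707 to 56810476), had 0.627 and 0.184 CPM at the high dose and 168 and 169.9 CPM at the low dose (-8.82 ± 0.29, adjusted p = 3.65e-13). At the low dose without additive it had 16.5 and 20.5 CPM, and 33.1 and 37.8 CPM in stem cells. The low-dose level with TGF-beta 1 was thus above all these. LHX5, a LIM homeobox gene of the forebrain, was at 0 at the high dose and at 16.1 and 24.9 CPM at the low dose, at least 192-fold higher.

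Central nervous system genes were mostly lower at the high dose too, with 8 of 15 lower, 3 higher and 4 not passed (median -1.29, or -0.93 at bounds). SOX1, a neural plate factor, had 1.08 and 1.23 CPM at the high dose and 38.3 and 41.8 CPM at the low dose with TGF-beta 1 (-5.09 ± 0.23, adjusted p = 1.68e-11), and 177 and 176 CPM at the low dose without additive. SOX2, of neural and pluripotent cells, fell from 376 and 384 to 158 and 154 CPM (-1.29 ± 0.12). PAX6, a paired-box factor of the neural tube, fell from 19.1 and 11.8 to 6.18 and 6.14 CPM (-1.31 ± 0.22), by less than without additive (difference 1.72 ± 0.30, adjusted p = 0.00106). Neuronal genes gave 2 higher, 6 lower and 1 not passed of 9 (median -0.95). NEUROG2, a proneural factor, was among the CNS genes that rose, from 0.285 and 0.117 to 3.05 and 4.79 CPM (4.31 ± 0.54).

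**Figure D3:**
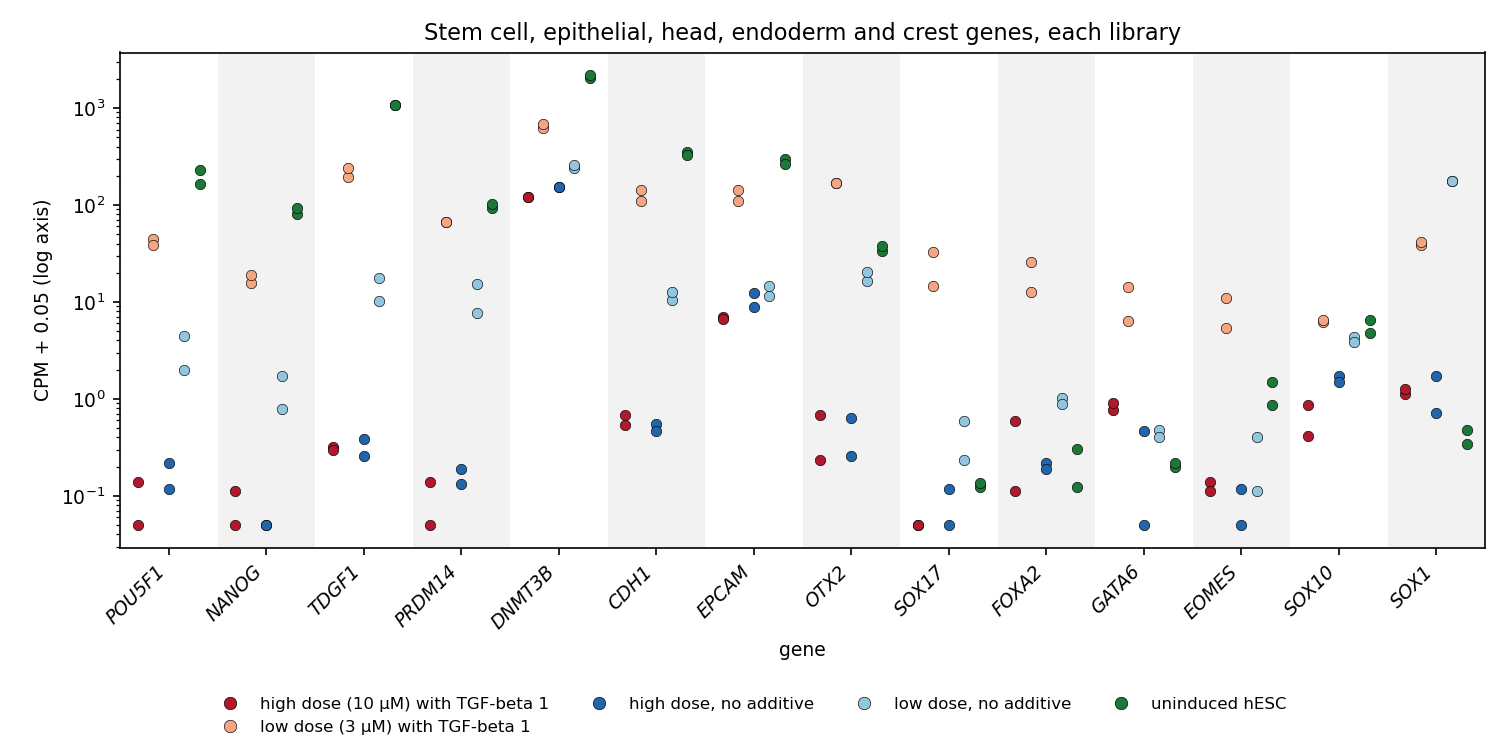
CPM + 0.05 on a log axis for 14 genes of pluripotency, epithelium, head, endoderm, neural crest and neural plate in uninduced stem cells and at both CHIR99021 doses with TGF-beta 1 and without additive; each point is 1 library. The low-dose libraries with TGF-beta 1 lie above the high-dose libraries with TGF-beta 1 for every gene (SOX17 at 14.7 and 32.4 CPM against 0), and SOX1 is highest at the low dose without additive.

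Crest markers were read beside the label induced neural crest, and they moved in both directions. Of 19 crest genes 7 rose with the dose, 7 fell and 5 did not pass (median -0.06). The members described one by one below are mostly ones that fell, with TWIST1 for those that rose. Their summed level was 807 and 790 CPM at the high dose and 571 and 717 CPM at the low dose. In uninduced stem cells it was 747 and 860 CPM, so that the sum does not set the cultures apart from stem cells. SOX10, a defining crest factor, had 0.806 and 0.368 CPM at the high dose and 6.19 and 6.5 CPM at the low dose (-3.50 ± 0.37, adjusted p = 7.29e-07), with 4.74 and 6.53 CPM in stem cells. FOXD3, shared by crest and stem cells, had 0.358 and 0.798 CPM against 7.61 and 9.49 CPM (-3.79 ± 0.40) and 32 and 41 CPM in stem cells. TFAP2A, an early crest factor, had 0.0896 and 0.0614 CPM and 12 and 19.1 CPM. At the high dose SOX10 and FOXD3 were thus little above the level of 3 counts and TFAP2A under it, and at the low dose the level of SOX10 was close to that in stem cells.

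TWIST1, a factor of crest and mesenchyme, rose from 0.64 and 0.937 to 22.1 and 19.5 CPM (4.69 ± 0.30, adjusted p = 1.41e-09). SOX9, another crest factor, had 18 and 14.1 CPM against 14.6 and 14 CPM and did not pass (adjusted p = 0.572). NGFR, the p75 neurotrophin receptor used to sort crest cells, fell from 47.7 and 51.2 to 10.9 and 11.3 CPM (-2.15 ± 0.13, adjusted p = 1.12e-09), and ERBB3, a neuregulin receptor, from 40.5 and 44.1 to 17.8 and 16 CPM (-1.33 ± 0.13).

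Neural plate border genes gave 4 higher, 4 lower and 3 not passed of 11 (median 0.48), and the difference between the settings passed for 7, all downward. MSX1, a homeobox gene of border and tailbud, rose from 5.26 and 12.9 to 85 and 123 CPM (3.49 ± 0.28), and ZIC1, a zinc-finger factor, from 1.49 and 2.75 to 51.4 and 57.3 CPM (4.64 ± 0.24).

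Among TGF-beta family ligands, with TGF-beta 1 supplied in both groups, of 10 tested 4 rose, 2 fell and 4 did not pass (median 0.50). TGFB1, the gene of the added ligand itself, had 97.9 and 86.8 CPM at the high dose and 14.3 and 20.2 CPM at the low dose (2.41 ± 0.18, adjusted p = 9.81e-09), and 108 and 82.6 CPM and 14.8 and 11.9 CPM without additive. TGFB2, a second ligand, rose from 4.55 and 2.69 to 29.9 and 26.3 CPM (2.97 ± 0.20). NODAL, the ligand that maintains pluripotency and induces mesendoderm (chr10, 70431936 to 70441709), had 2.51 and 2.88 CPM and 6.47 and 7.67 CPM with TGF-beta 1 and 1.41 and 1.44 CPM and 0 and 0.179 CPM without. It fell with the dose in the former (-1.38 ± 0.30, adjusted p = 0.00145) and rose in the latter, with 38 counts against 3, a ratio of 15.8 (5.01 to 80). The test of the difference passed (adjusted p = 7.69e-05).

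Receptors and SMADs gave 4 higher, 5 lower and 4 not passed of 13 (median -0.34). TGFBR2, the receptor that binds TGF-beta 1, rose from 5.76 and 5.62 to 18.9 and 17.1 CPM (1.66 ± 0.16, adjusted p = 1.83e-07), and SMAD3, its effector, from 85.9 and 73.4 to 190.0 and 164 CPM (1.15 ± 0.11, adjusted p = 2.42e-07). TGFBR3, the coreceptor betaglycan, fell slightly with TGF-beta 1, from 38.8 and 35.4 to 27.6 and 27.2 CPM (-0.44 ± 0.10, adjusted p = 0.00251). Without additive it went from 157 and 156 to 31.3 and 31.8 CPM, and the difference was 1.88 ± 0.14 (adjusted p = 2.82e-07). FOXH1, the DNA-binding partner of SMAD2 in nodal signalling, had 6.54 and 5.28 CPM against 36.9 and 47.5 CPM with TGF-beta 1 (-2.85 ± 0.18, adjusted p = 9.27e-10) and 8.64 and 7.57 CPM against 8.22 and 8.67 CPM without, a difference of -2.79 ± 0.25 (adjusted p = 1.36e-06).

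Feedback genes of the pathway split, with 7 of 18 higher, 7 lower and 4 not passed (median 0.17). LEFTY2, a secreted nodal inhibitor (chr1, 225936598 to 225941383), had 1021 and 1123 CPM at the high dose and 4.05 and 2.75 CPM at the low dose with TGF-beta 1, 184 and 134 CPM and 2.25 and 2.81 CPM without additive, and 1.53 and 0.836 CPM and 1.77 and 1.05 CPM with SB431542. The low-dose groups were alike in being low, while the high-dose level differed widely with the additive. Its step was 8.32 ± 0.23 with TGF-beta 1 (adjusted p = 1.11e-13), 5.97 ± 0.22 without (difference 2.35 ± 0.35, adjusted p = 2.47e-04), and it did not pass with SB431542 (adjusted p = 0.699). LEFTY1, a near-identical neighbour, rose from 3.91 and 3.57 to 25.2 and 32.5 CPM (2.95 ± 0.27), and reads that fit both genes were not counted.

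The feedback genes named next did not share this pattern. Other members of the 7 that rose, LTBP1 among them, are not described here. SMAD7, the inhibitory SMAD, had 23 and 18.1 CPM against 9.82 and 16.6 CPM and did not pass (adjusted p = 0.063; 1.06 and passed without low-dose replicate 2). SKIL, a SMAD corepressor, had 174 and 181 CPM against 126 and 140.0 CPM with TGF-beta 1 (adjusted p = 0.0801) and 148 and 169.6 CPM against 25.3 and 35.2 CPM without, a difference of -1.98 ± 0.27 (adjusted p = 1.20e-04). Only the low-dose group without additive was low among these 4 groups. BAMBI, a decoy receptor, fell from 19.4 and 25.1 to 4.84 and 5.03 CPM (-2.17 ± 0.19), and TGIF1, a corepressor, from 149 and 172 to 67.3 and 67.6 CPM (-1.25 ± 0.12). FST, the activin antagonist follistatin, fell from 305 and 291 to 106 and 134 CPM (-1.31 ± 0.11).

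Genes that TGF-beta commonly induces rose with the dose for 16 of 24 members, while 1 fell and 7 did not pass (median 0.89). Without additive 16 rose as well and 4 fell (median 1.07), and with SB431542 10 rose and 10 fell (median -0.04). ACTA2, smooth muscle actin, rose from 21.1 and 17.2 to 313 and 304 CPM (4.02 ± 0.13, adjusted p = 3.65e-13). LOX, a collagen cross-linking enzyme, rose from 0.996 and 0.703 to 77.6 and 72.5 CPM (6.47 ± 0.25), beyond its step without additive by 2.32 ± 0.41 (adjusted p = 0.00113). TGFBI, a secreted matrix protein named for its induction by TGF-beta, had 183 and 197 CPM against 10.8 and 10.4 CPM with TGF-beta 1 (4.17 ± 0.16) and 437 and 369.6 CPM against 6.64 and 5.8 CPM without, so that its step was smaller with TGF-beta 1 (difference -1.85 ± 0.23, adjusted p = 4.01e-05). TAGLN, a smooth muscle protein, rose from 208 and 241 to 998 and 1081 CPM (2.21 ± 0.17), and TPM1, a tropomyosin, was the member that fell, from 1006 and 929 to 535 and 496 CPM (-0.91 ± 0.11).

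BMP ligands and antagonists gave 4 higher, 4 lower and 5 not passed of 13 (median -0.20). BMP4 rose from 6.76 and 8.55 to 37.5 and 34.3 CPM (2.22 ± 0.18), and BMP5 fell from 35.8 and 30.6 to 2.96 and 2.02 CPM (-3.77 ± 0.23, adjusted p = 8.39e-10), both being ligands. BMP2 (chr20, 6768098 to 6780263), a ligand close to BMP4, had 21.9 and 20.8 CPM and 45.9 and 72.7 CPM with TGF-beta 1 and 41.1 and 32.1 CPM and 14.6 and 16.1 CPM without. It fell in the former (-1.48 ± 0.19, adjusted p = 5.53e-06) and rose in the latter (1.25 ± 0.19), a difference of -2.73 ± 0.26 (adjusted p = 2.53e-06). GREM1, a secreted BMP antagonist, rose from 1.49 and 2.28 to 28.6 and 25.7 CPM (3.82 ± 0.23).

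BMP target genes gave 2 higher, 5 lower and 5 not passed of 12 (median -0.59). ID2, an inhibitor of helix-loop-helix factors, fell from 176 and 204 to 91.4 and 103 CPM (-0.97 ± 0.12), and ID4, of the same family, from 119.9 and 167 to 43.4 and 48.2 CPM (-1.65 ± 0.15, difference -1.44 ± 0.21). ID1 and ID3, the other members of that family tested, did not pass (adjusted p = 0.105 and 0.0742). Each passed without 1 low-dose library, ID1 at -0.88 without replicate 1 and ID3 at 0.64 without replicate 2.

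Genes that report FGF and ERK signalling rose for 8 of 14 members, while 2 fell and 4 did not pass (median 0.67, against 2.55 without additive, where 11 rose and 1 fell). The difference between the settings passed for 7, all downward. DUSP6, a phosphatase that switches ERK off, rose from 91.6 and 133 to 617 and 640.2 CPM (2.48 ± 0.15, adjusted p = 1.04e-09). SPRY4, an inhibitor of the pathway (chr5, 142310427 to 142325055), had 33.6 and 42.1 CPM and 33.2 and 44.1 CPM with TGF-beta 1 and 61.1 and 68.8 CPM and 5.06 and 4.78 CPM without. Groups overlapped with TGF-beta 1 (-0.03 ± 0.19, adjusted p = 0.921) and were far apart without (3.72 ± 0.23), a difference of -3.75 ± 0.30 (adjusted p = 3.73e-07).

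IL17RD, a membrane inhibitor of FGF signalling (chr3, 57089982 to 57165375), had 451 and 535 CPM and 36.4 and 43 CPM with TGF-beta 1 and 619 and 780.0 CPM and 8.89 and 8.31 CPM without (3.63 ± 0.16 and 6.34 ± 0.19, difference -2.71 ± 0.23, adjusted p = 6.89e-07). ETV5, an ETS factor downstream of FGF, rose from 19.1 and 19.9 to 49.9 and 54.7 CPM (1.42 ± 0.11, difference -2.28 ± 0.17). SPRY1 rose from 9.75 and 13.2 to 71.1 and 67.5 CPM (2.59 ± 0.15). In SPRY4, IL17RD and ETV5 alike, the low-dose level was higher with TGF-beta 1 than without, and the high-dose level lower.

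FGF ligands and receptors gave 10 higher, 6 lower and 4 not passed of 20 (median 0.25). FGF18, a ligand, rose from 1.07 and 0.995 to 87.1 and 79.9 CPM (6.33 ± 0.25, adjusted p = 4.11e-12), and FGF9, another, from 2.13 and 1.7 to 22 and 19.2 CPM (3.43 ± 0.23). FGF2, the ligand that maintains human stem cells, fell from 124 and 134 to 67.7 and 69.6 CPM (-0.91 ± 0.14). The receptors FGFR2 and FGFR3 fell, from 276 and 277 to 68.7 and 69.1 CPM (-2.00 ± 0.094) and from 273 and 309 to 43.4 and 55 CPM (-2.56 ± 0.12).

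Notch pathway genes gave 7 higher, 2 lower and 10 not passed of 19 (median 0.29). The 9 called of 19 were near the share of 46.3% called over all tested genes. HES7, the repressor at the core of the somite clock and a member of the caudal list, rose from 1.21 and 1.52 to 19.4 and 19.6 CPM (3.82 ± 0.22, adjusted p = 3.66e-10). HEY2, a Notch target, rose from 2.7 and 1.93 to 51.8 and 45.9 CPM (4.41 ± 0.19). DLL3, a divergent Delta of the presomitic mesoderm, had 57 and 50.2 CPM and 6.54 and 7.32 CPM with TGF-beta 1 and 55 and 41.8 CPM and 33.2 and 24.9 CPM without, a larger step with TGF-beta 1 by 2.21 ± 0.23 (adjusted p = 5.65e-06).

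Collagens and matrix genes were higher at the high dose. Of 23 collagen genes 17 rose, 5 fell and 1 did not pass (median 0.95), and of 24 other matrix genes 14 rose, 6 fell and 4 did not pass (median 0.56). Without additive 14 collagen genes rose and 5 fell (median 0.76), and 16 of the other matrix genes rose and 5 fell (median 0.95). COL1A1 and COL1A2, the chains of type I collagen, came apart between the settings. COL1A1 rose from 194 and 211 to 606 and 609 CPM with TGF-beta 1 (1.58 ± 0.097) and from 254 and 269.8 to 514 and 506 CPM without (0.96 ± 0.095, difference 0.62 ± 0.13). COL1A2 (chr7, 94394561 to 94431232) rose from 272 and 282 to 1347 and 1219 CPM with TGF-beta 1 (2.21 ± 0.096, adjusted p = 1.29e-11) and had 547 and 563 CPM at the high dose and 651 and 709 CPM at the low dose without, a difference of 2.50 ± 0.13 (adjusted p = 4.95e-09).

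COL2A1, the collagen of cartilage and notochord, rose from 187 and 231 to 1045 and 1002 CPM (2.29 ± 0.11, difference 1.56 ± 0.15), and COL14A1, a fibril-associated collagen, from 16.6 and 15.8 to 183 and 174 CPM (3.46 ± 0.16, difference 1.85 ± 0.23). BGN, the proteoglycan biglycan, rose from 4.55 and 4.63 to 219.8 and 211 CPM (5.55 ± 0.13, adjusted p = 2.78e-14). HAPLN1, which links hyaluronan to proteoglycan, had 138 and 144 CPM and 3.27 and 3.22 CPM with TGF-beta 1 and 16.1 and 14.8 CPM and 2.01 and 1.44 CPM without (5.44 ± 0.17, difference 2.28 ± 0.29). The doses were cleanly separated in each of these genes with TGF-beta 1. LAMA1, a laminin chain of early epithelia, fell from 384 and 400.2 to 214 and 197 CPM (-0.93 ± 0.12).

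Mesenchymal genes rose for 11 of 14 members, while 2 fell and 1 did not pass (median 1.17), against 8 and 3 without additive. PDGFRA, a growth factor receptor of mesenchyme, had 389 and 407 CPM at the high dose and 15.2 and 14.3 CPM at the low dose (4.75 ± 0.13, adjusted p = 9.21e-14). ZEB1, a repressor of epithelial genes, rose from 15.7 and 12.1 to 66.7 and 70.4 CPM (2.31 ± 0.13). Smooth muscle genes gave 7 higher, 2 lower and 5 not passed of 14 (median 0.56), against 10 higher and 2 lower without additive (median 1.13). Targets of the YAP coactivator gave 5, 2 and 7 of 14 (median 0.07), against 4 higher and 5 lower without additive (median 0.20). The 7 YAP targets called with TGF-beta 1 were near the share of 46.3% called over all tested genes. Markers of the mesenchymal and somite lists and of the matrix lists thus moved in the same direction as the HOX genes, and their part in one another's change was not tested.

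Markers of other lineages that such cultures could hold were mixed. Lateral plate genes gave 5 higher and 5 lower of 10 (median -0.49), and endothelial genes 3 higher, 3 lower and 4 not passed of 10. TEK and KDR, receptors of endothelial cells, fell from 156 and 138 to 13.4 and 16.9 CPM (-3.27 ± 0.12) and from 39.5 and 31.6 to 8.42 and 7.73 CPM (-2.14 ± 0.15). LMO2, a factor of blood and endothelium, rose from 1.21 and 1.11 to 15.3 and 20.7 CPM (3.96 ± 0.34).

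Of 20 cell cycle genes 3 rose, 6 fell and 11 did not pass (median -0.18), and the 9 calls were 5 without high-dose replicate 1 and 5 without low-dose replicate 2. With all libraries, the 9 called of 20 were near the share of 46.3% called over all tested genes. MCM5, a subunit of the replication helicase, fell from 153 and 175 to 75.1 and 80.1 CPM (-1.08 ± 0.12), and TOP2A, a mitotic topoisomerase, rose from 839 and 693 to 1045 and 1166 CPM (0.53 ± 0.12). Cholesterol synthesis genes rose for 8 of 15 members, while 1 fell and 6 did not pass (median 0.39), and the 9 calls were 3 without low-dose replicate 2. DHCR7, an enzyme of its last steps, rose from 45.3 and 54.8 to 96.1 and 83.3 CPM (0.84 ± 0.14). Glycolysis genes gave 1 higher, 6 lower and 10 not passed of 17 (median -0.21), and the 7 called were also near that share of 46.3%. SLC2A3, a glucose transporter, fell from 1144 and 1402 to 207 and 192 CPM (-2.68 ± 0.14, adjusted p = 1.12e-10), by more than without additive (difference -1.97 ± 0.19).

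Genes of the p53 and stress response gave 5 higher, 6 lower and 6 not passed of 17 (median 0.07), and the 11 calls were 7 without high-dose replicate 1 and 7 without low-dose replicate 2. PMAIP1, the pro-apoptotic protein NOXA, stood apart: it had 2.69 and 2.64 CPM at the high dose and 99.7 and 91.7 CPM at the low dose with TGF-beta 1, and 1.33 and 1.24 CPM and 4.93 and 5.26 CPM without. Low-dose libraries with TGF-beta 1 were far above the other 3 groups (-5.16 ± 0.15, adjusted p = 1.53e-13, difference -3.18 ± 0.30). FAS, a death receptor, rose from 11.2 and 8.49 to 22.4 and 23.4 CPM (1.23 ± 0.15).

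**Figure D4:**
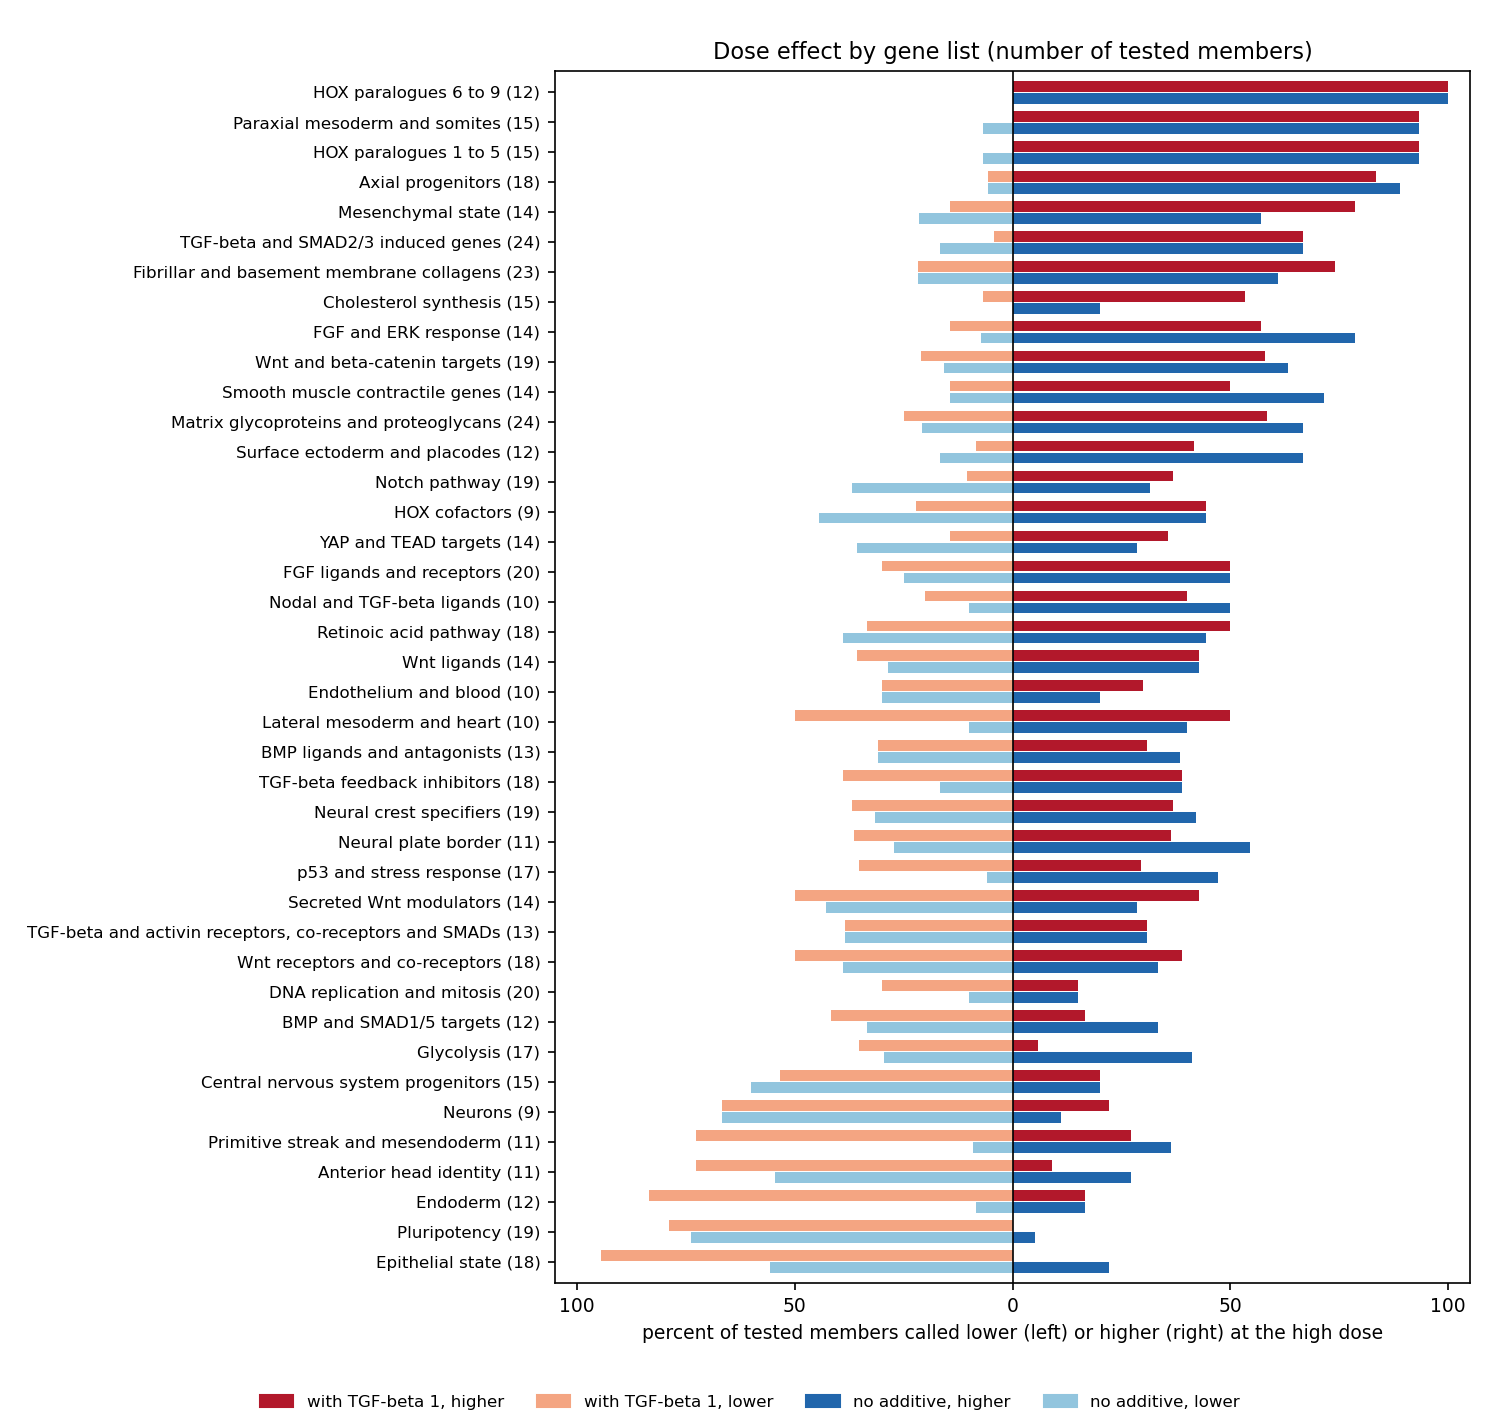
Share of the tested members of each gene list that were lower (bars to the left) or higher (bars to the right) at the high CHIR99021 dose, in percent, with TGF-beta 1 (red shades) and without additive (blue shades), for lists with at least 9 tested genes. HOX and paraxial genes extend to the right in both settings, and epithelial, endoderm and streak genes extend further to the left with TGF-beta 1 (17 of 18 epithelial genes against 10).

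Several genes changed direction with TGF-beta 1. VCAM1, a cell adhesion molecule (chr1, 100719640 to 100739046), had 13.8 and 15.2 CPM at the high dose and 0.925 and 0.82 CPM at the low dose with TGF-beta 1, 5.24 and 5.57 CPM and 12.4 and 12.9 CPM without additive, and 0.699 and 0.892 CPM and 66.5 and 67.1 CPM with SB431542. It rose with the dose in the first setting (4.05 ± 0.20) and fell in the other two (-1.22 ± 0.15 and -6.37 ± 0.19). The difference was 5.27 ± 0.25 to no additive (adjusted p = 2.82e-09) and 10.42 ± 0.27 to SB431542 (adjusted p = 2.59e-13). Low-dose levels were lowest with TGF-beta 1 and highest with SB431542, and high-dose levels ran in the opposite order.

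IGFBP5, a binding protein for insulin-like growth factors (chr2, 216672105 to 216695549), had 494 and 507 CPM and 215 and 163 CPM with TGF-beta 1 and 281 and 343 CPM and 1413 and 1402 CPM without (1.41 ± 0.12 and -2.17 ± 0.12, difference 3.58 ± 0.17, adjusted p = 2.82e-09). SULF1, an enzyme that trims heparan sulphate, had 148 and 141 CPM and 63.3 and 49.2 CPM, against 66.8 and 62.4 CPM and 181 and 173 CPM (1.36 ± 0.12 and -1.45 ± 0.12, difference 2.81 ± 0.17). NID2, a basement membrane nidogen, had 94.9 and 94.4 CPM and 75.1 and 60.4 CPM, against 54.2 and 60.9 CPM and 231 and 229 CPM (0.48 ± 0.11 and -2.00 ± 0.11, difference 2.48 ± 0.15). In all 3 the low-dose level was lower and the high-dose level higher with TGF-beta 1 than without.

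IGF2, a growth factor whose gene overlaps a read-through transcript in the annotation (chr11, 2129112 to 2149603), had 33.2 and 26.1 CPM and 0.427 and 0.586 CPM with TGF-beta 1 and 12.7 and 10.7 CPM and 11.6 and 10.2 CPM without. It rose in the first setting (5.82 ± 0.33, adjusted p = 6.81e-10) and did not pass in the second (adjusted p = 0.78), a difference of 5.73 ± 0.41 (adjusted p = 2.50e-07). NR2F1, an orphan nuclear receptor of neural tissue (chr5, 93583337 to 93594609), fell in both, from 35.9 and 33.8 to 12.1 and 13.1 CPM with TGF-beta 1 and from 107 and 100.3 to 1.16 and 0.894 CPM without (-1.46 ± 0.14 and -6.66 ± 0.19, difference 5.20 ± 0.26, adjusted p = 2.87e-09). Its range between doses was thus compressed from both ends.

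At the other end, CNTNAP4, a neurexin-family adhesion protein, had 7.17 and 6.81 CPM and 8.32 and 10.0 CPM with TGF-beta 1 (adjusted p = 0.0901) and 22.2 and 25.2 CPM and 0.487 and 0.598 CPM without, a difference of -5.82 ± 0.32 (adjusted p = 7.78e-09). S100A14, a calcium-binding protein of epithelia, was high in a single setting, with 15.2 and 28.8 CPM at the low dose with TGF-beta 1 against 0.358 and 0.429 CPM at the high dose (-5.76 ± 0.44) and 0.305 and 0.299 CPM at the low dose without additive (difference -5.35 ± 1.11, adjusted p = 0.00396).

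**Figure D5:**
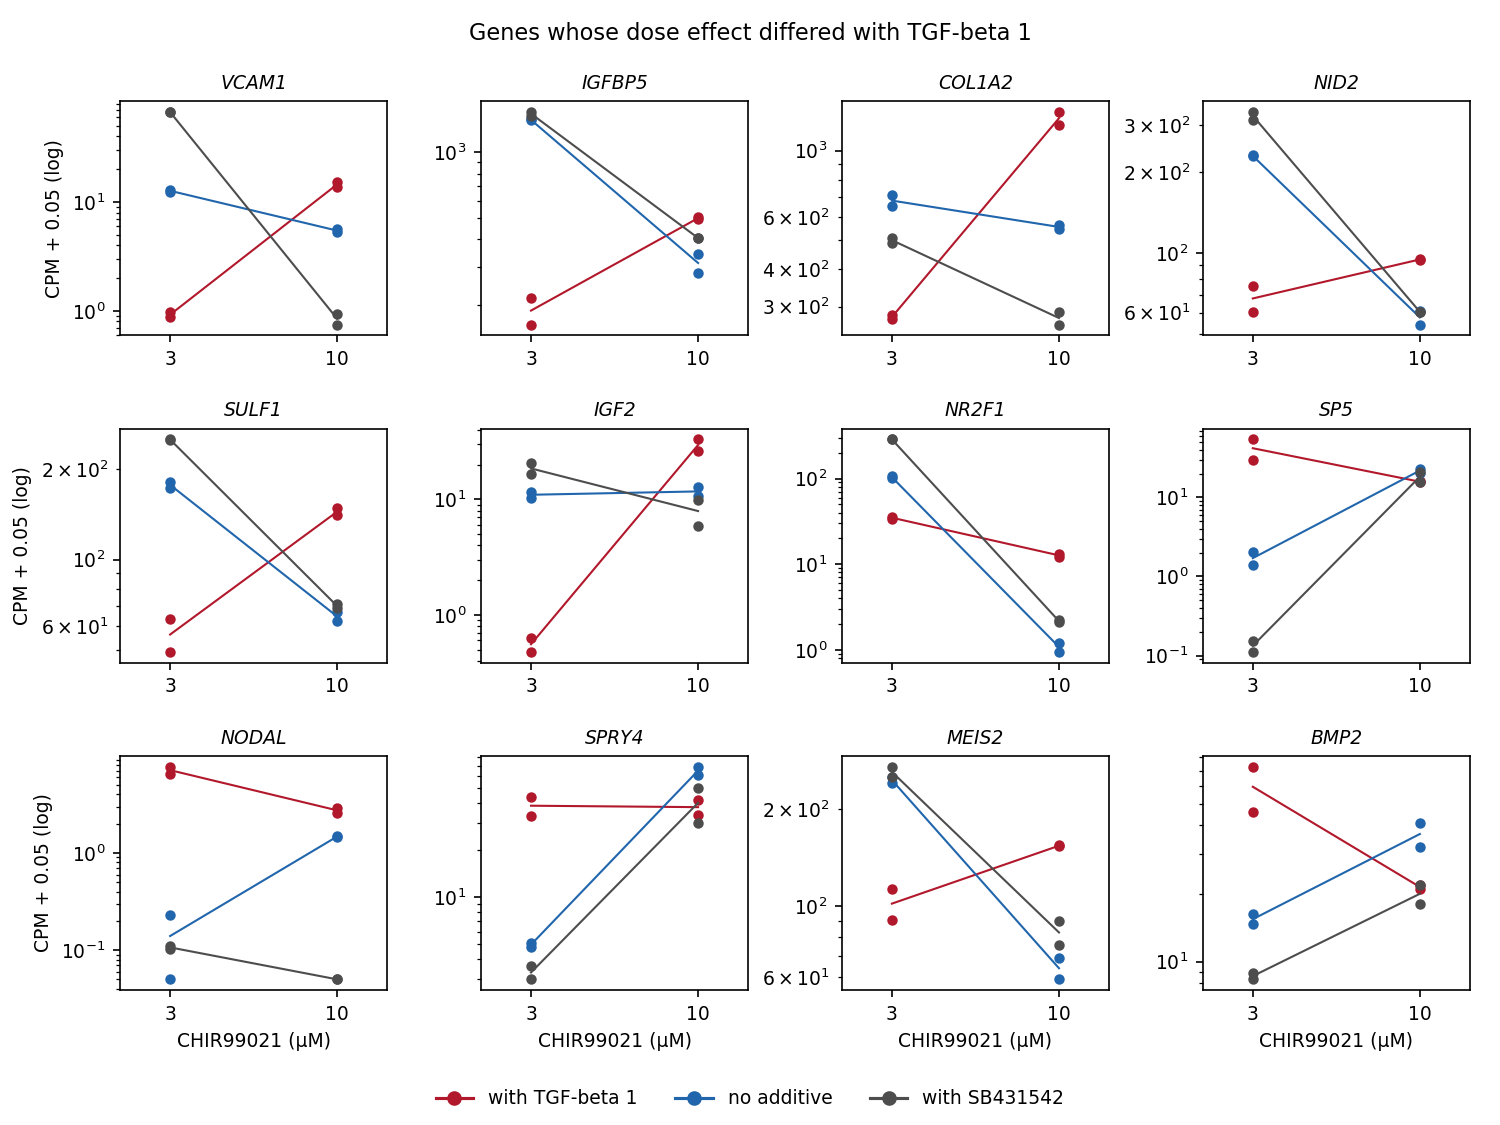
CPM + 0.05 on a log axis against the CHIR99021 dose (3 and 10 µM) for 12 genes whose dose effect differed with TGF-beta 1; each point is 1 library and lines join group means for TGF-beta 1 (red), no additive (blue) and SB431542 (grey). VCAM1 rises from 0.925 and 0.82 to 13.8 and 15.2 CPM along the red line and falls along the other two, whereas SP5, NODAL and BMP2 fall along the red line and rise along the blue one.

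Against the cultures with SB431542, in which the receptors were blocked, the dose effect with TGF-beta 1 differed for 3630 genes (22.5%; 11% higher and 11.4% lower). LEFTY2 gave the difference 8.57 ± 0.55 (adjusted p = 1.09e-08) and IGF2 7.05 ± 0.40 (adjusted p = 6.94e-09). COL5A3, a collagen chain, rose from 12.7 and 10.7 to 39.9 and 38.2 CPM with TGF-beta 1 and had 4.13 and 3.57 CPM at the high dose and 61.8 and 64.4 CPM at the low dose with SB431542 (difference 5.78 ± 0.25, adjusted p = 2.03e-10). PPP1R14C, a phosphatase inhibitor, had 70.0 and 73.2 CPM and 16.8 and 14.8 CPM against 10.2 and 7.91 CPM and 86.6 and 87.1 CPM (difference 5.45 ± 0.19). Both doses were ordered in opposite ways in the 2 settings for these collagen and inhibitor genes.

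SP5 had 20.7 and 15.8 CPM at the high dose and 0.061 and 0.105 CPM at the low dose with SB431542, which is 610 counts against 3, a ratio of 214 (73 to 1040). Its dose effect differed from that with TGF-beta 1 (adjusted p = 1.00e-08). The low-dose level of SP5 was lowest with SB431542, higher without additive and highest with TGF-beta 1. LEF1 with SB431542 had 184 and 166 CPM and 12.1 and 14.4 CPM, a difference in dose effect of 0.62 ± 0.17 (adjusted p = 0.0126). That call was lost at 0.55 without high Wnt + SB431542 replicate 2 and at 0.49 without low Wnt + SB431542 replicate 2. For HOXB9 the dose effects with TGF-beta 1 and with SB431542 did not differ by this test (adjusted p = 0.256), which does not show that they were equal. Without low Wnt + TGF-beta 1 replicate 2 the difference was -1.90 and passed, and with no filter on low counts it was -1.03 and passed.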

How the data were processed

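Gene-level counts, not normalized, are what the authors deposited for the 14 libraries, in 1 table. Reads, per the submitters' processing notes, were handled with bcl2fastq, aligned with HISAT2 2.2.0 to hg38, handled with SAMtools 1.10 and counted with featureCounts 2.0.0; per the file headers, counting was paired and reverse-stranded over exons, with multi-mapping reads and reads over 2 genes left out. Genes with near-identical copies are thus undercounted.

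Of 26485 genes, 16149 passed edgeR's filter on low counts. They were fitted in edgeR 4.0.16 (R 4.3.3, limma 3.58.1) with TMM scaling and a quasi-likelihood model over all 7 groups (7 residual degrees of freedom, biological coefficient of variation 0.101), and tested at an adjusted p under 0.05 (Benjamini-Hochberg). Each contrast is high minus low CHIR99021. CPM uses effective library sizes; figures add 0.05. Intervals on ratios of low counts are exact 95% intervals for counting error only. DESeq2 1.42.0 and the alternatives in the closing section were also run. The fit was tested on simulated data.

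The comparison, its 42 gene lists and the other tests were chosen with earlier results of these data known. Named genes were the 8 largest and smallest changes above 10 CPM, the smallest p-values or minority directions of each list, all HOX, ligand, receptor and feedback genes, a panel of 62 genes, and the 5 extreme or opposite genes of each difference. Some members are not reported here. TBXT and 2 others were matched by older symbols. Promoter sequences are from RefSeq, GRCh38.p14.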

Additional observations from a re-analysis of the deposited data

Results flagged for a closer look

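The dose effect of CHIR99021 with TGF-beta 1 differed from that without additive for 1905 genes and from that with SB431542 for 3630, by the edgeR interaction test at an adjusted p under 0.05. The named genes below were listed because that test of the difference passed; each value is a difference of log2 fold changes, high dose minus low dose, with TGF-beta 1 minus without additive. It was negative for SP5 (-5.13), DKK1 (-1.70), CNTNAP4 (-5.82), PMAIP1 (-3.18), FOXH1 (-2.79), BMP2 (-2.73) and EPCAM (-3.92). For NODAL it was -5.25, a fitted value that depends on the prior count because the low-dose group without additive held 3 counts. Genes around FGF signalling were negative too, with SPRY4 at -3.75, IL17RD at -2.71 and FGF17 at -3.89.

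Positive differences were those of VCAM1 (5.27), IGFBP5 (3.58), COL1A2 (2.50), NID2 (2.48), SULF1 (2.81), IGF2 (5.73) and NR2F1 (5.20). MEIS1 (2.17), MEIS2 (2.54), EYA1 (2.51), TGFBR3 (1.88) and LEFTY2 (2.35) were positive as well. Against SB431542 the difference was 10.42 for VCAM1, 8.57 for LEFTY2, 7.05 for IGF2, 5.78 for COL5A3 and 5.45 for PPP1R14C. What sets these differences was not tested.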

How the results depend on the processing

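Among the genes named here, no called dose effect with TGF-beta 1 or without additive, and no called difference, reversed its direction under any alternative. The alternatives were RLE scaling, library totals, no filter on low counts, a fold change minimum and the replicate block. Fewer libraries in the fit, DESeq2 and each library left out were the others. Near-even counts of higher and lower genes could change order. Without additive they were 3137 and 3086, and 3024 and 3145 with library totals. With a log2 fold change of at least 1 required as well, counts of called genes fell to 3293 with TGF-beta 1, 2774 without additive, 2344 with SB431542, 1064 for the difference to no additive and 2019 for the difference to SB431542. Leaving out each library in turn gave 5809 to 6421 calls with TGF-beta 1, 4603 to 5121 without additive, 3449 to 4003 with SB431542, 1256 to 1727 for the difference to no additive and 2784 to 3330 for the difference to SB431542; a group left with 1 library was assumed to vary like the others. DESeq2 called 6886, 5729, 4464, 1864 and 3453 genes in that order. The fold change minimum also removes every named call under 1 on the log2 scale, such as CCND1, MEIS2 and TOP2A. Under the other alternatives, among the genes named here, MIXL1 alone lost its call with TGF-beta 1 (at 1.31 without high-dose replicate 1 and at 1.32 without low-dose replicate 1), while AXIN2, ID1, ID3, NKX1-2, SKIL and SMAD7, which did not pass, passed under some of them. Counted over those genes and alternatives, the dose effect without additive lost its call in 27 of 1738 comparisons and gained one in 4, the difference to no additive in 62 and 59 of 2369, and the difference to SB431542 in 94 and 40 of 2370. The 7 calls among glycolysis genes were 11 when only the libraries compared were fitted, and the 11 among Wnt ligands were 7 with DESeq2.

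The labels do not say whether libraries with the same replicate number share a batch. Deviations of same-numbered high- and low-dose libraries with TGF-beta 1 correlated at 0.0146, and at -0.00877 to 0.206 over 15 pairs of groups. These correlations do not settle whether a batch was shared. With the replicate block in the fit, 7764, 6563, 5190, 2129 and 3995 genes were called. The fit was run on simulated counts with 2 libraries a group and 200 of 16149 genes changed. It recovered 76% of genes changed by a log2 fold change of 1 and 94% of those changed by 2, with 7 false calls. Smaller changes may thus be missed. In the data 7469 genes were called, far more than were changed in the simulation, so these rates need not hold for the data. Levels under 3 counts limit what can be said of SOX17, POU5F1, NANOG and HOXA5 at the dose where they were lowest.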

Other observations

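The 2 low-dose libraries with TGF-beta 1 differed from each other in several gene groups. All 12 HOX genes of groups 6 to 9 were higher in replicate 1, with a summed level of 16.8 CPM against 3.28 CPM in replicate 2, and so were 12 of 15 HOX genes of groups 1 to 5 (summed 30.1 against 16.6 CPM). Endoderm genes were the reverse, with 11 of 12 higher in replicate 2 (summed 102 against 185 CPM), as were all 18 epithelial genes (903 against 1108 CPM) and 13 of 19 pluripotency genes. Other groups differed too: all 12 BMP targets were higher in replicate 2, as were 10 of 11 neural plate border genes and 14 of 19 neural crest genes. Axial progenitor genes split 8 and 9. Over all tested genes 8293 were higher in replicate 1 and 7816 in replicate 2. In the low-dose pair without additive, 5 of the 12 HOX genes of groups 6 to 9 were higher in replicate 1 and 6 in replicate 2 (summed 11 and 10.9 CPM), and the epithelial genes split 6 and 12. Uneven splits were not particular to the low-dose pair with TGF-beta 1. All 17 glycolysis genes were higher in replicate 1 at the high dose, both with TGF-beta 1 and without additive. At the high dose without additive the epithelial genes split 14 and 1, and the paraxial mesoderm genes 14 and 1. These are values of single libraries, with no test, and nothing in the labels tells the replicates apart.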
